A study of Mus musculus with 14 samples.

Results

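Bicuculline, a blocker of GABA-A receptors, was compared with a DMSO control after 1 h in primary mouse cortical neuron cultures. The comparison takes the 3 bicuculline libraries and the 2 DMSO libraries, 5 of the 14 libraries of the series, chosen by their treatment labels. All cultures came from C57BL/6 mice of WT genotype and were treated after 12 days in vitro. The bicuculline group received 20 µM bicuculline and the control group 1% DMSO. A DMSO content is labelled for the control group only, so a difference in solvent cannot be told apart from the drug. The other 9 libraries came from cultures treated for 1 h with 4% by volume of NMP peptides, the same peptides cleaved with proteinase K (PK), or NMP peptides with 100 µM APV, an NMDA receptor antagonist. They entered the shared estimate of spread and are used below only as side-by-side values.

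Inhibition through GABA-A receptors holds down firing in cortical networks, and blocking it makes cultured neurons fire in synchronous bursts. The calcium that enters during such bursts activates MAP kinase and CREB signalling, and a first wave of genes is transcribed without new protein synthesis. That wave includes transcription factors such as Fos and Egr1, and also genes for phosphatases, small GTPases, secreted proteins, ubiquitin ligases and enzymes. Genes of these kinds are described here, and whether their changes need new protein synthesis was not tested.

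RNA was sequenced from ribosome-depleted libraries, and the deposited values are quantile-normalised log2 signals whose read depth is unknown. Each library lists a value for 15824 to 16231 features. Neuronal identity was checked on markers: all 11 pan-neuronal and all 12 excitatory markers were tested, and Slc17a7, the cortical vesicular glutamate transporter, had signals of 6.34, 6.07 and 6.09 in bicuculline and 6.02 and 6.38 in DMSO. Gad1, which makes GABA in inhibitory neurons, lay between 5.54 and 5.96. Glia were present. Summed on the linear scale, 13 astrocyte markers gave 400.4 to 436.5 in bicuculline and 412.9 to 417.8 in DMSO. The sum over 14 oligodendrocyte lineage markers was 139.7 to 154.8 in bicuculline and 154.9 to 175.9 in DMSO, and all bicuculline libraries were below both DMSO libraries. Over 13 microglia markers the sum was 8.85 to 9.64 against 8.65 to 8.68, and over 13 endothelial and mural markers it was 4.65 to 6.41 against 4.91 to 5.60. Cldn5, a defining endothelial gene, had a value only in bicuculline replicates 1 and 3. Gfap, an astrocyte filament gene, was 2.67, 4.18 and 3.47 in bicuculline replicates 1 to 3 and 4.13 and 2.68 in DMSO replicates 2 and 3, so it split both groups. The calls without the 4 libraries of highest Gfap are given below. In bulk RNA, fewer cells of a type and less RNA per cell cannot be told apart.

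After 1 h of bicuculline, 51 of 10877 genes tested were called higher (0.469%) and 0 were called lower, with limma and an adjusted p under 0.05. At an unadjusted p under 0.05 there were 207 genes higher (1.90%) and 135 lower (1.24%). Of the 51 genes, 16 were classic immediate-early transcription factors, led by Npas4 (log2 fold change 4.33, SE 0.31), and 35 were not. The 35 rose by 0.45 to 4.15 on the log2 scale, and their bicuculline and DMSO libraries did not overlap in any of them. Over all genes tested, the bicuculline libraries lay entirely above DMSO in 5.81% and entirely below in 12.0%. The median log2 fold change of all genes tested was -0.03. One of the 35, Gm13889, is a predicted gene model and is not described further.

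**Figure D1:**
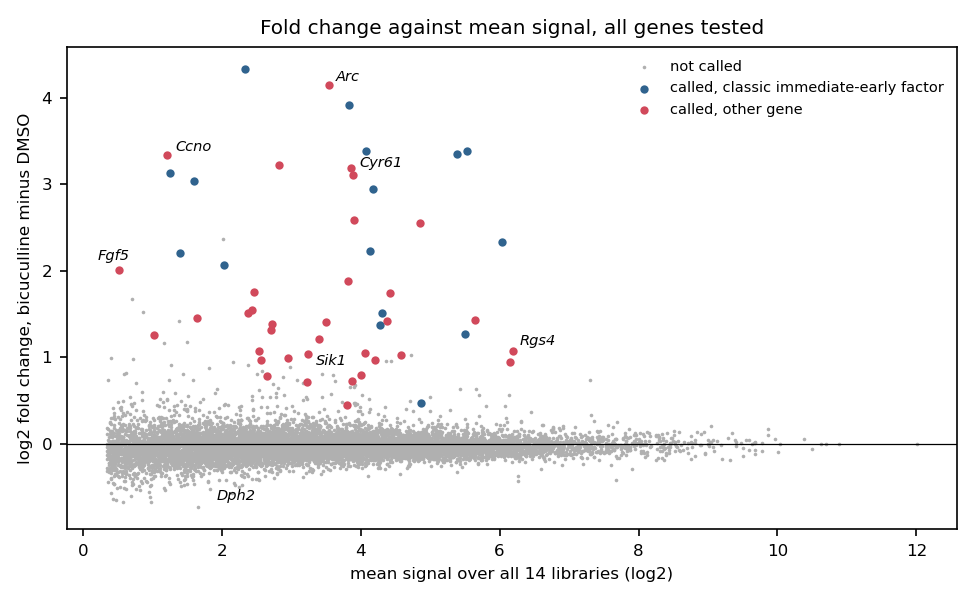
Mean log2 signal over all 14 libraries (horizontal) against the log2 fold change in bicuculline against DMSO (vertical) for the 10877 genes tested. Grey points were not called, blue points are the 16 called classic factors and red points the 35 other called genes, all of which lie above 0.

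The called genes were short. Their median span in the genome was 5654 bases (51 genes, and the same over the 35 outside the factors), against 25044 bases over all genes tested with a span. A span under 10000 bases was found in 65.7% of the 35 genes and in 23.6% of all genes tested. Exons were counted on the GENCODE basic transcript with the longest exonic length. Up to 3 exons were found in 48.6% of the 35 genes and in 13.3% of all genes tested. On that transcript 4 of the 35 genes, among them Adrb1 and Cited2, had 1 exon (11.4%, against 2.50% of all genes tested). Other transcripts of a gene can have more exons. The 135 genes lower at an unadjusted p under 0.05 had a median span of 17142 bases. Within 1 Mb, only Ier2 and Junb on chromosome 8 neighboured each other among the 51 genes, so the remaining called genes were not clustered at that distance.

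Promoter sequences, defined here as the 250 bases before the RefSeq transcript start on GRCm38.p6, were found for 43 of the 51 called genes (51 windows) and for 30 of the 35 outside the factors (32 windows). The windows were searched on both strands for the cAMP response element TGACGTCA (CRE), the shorter form TGACG, the AP-1 site TGANTCA, the EGR site GCGTGGGCG and the CArG box, which serum response factor binds. A full CRE always contains TGACG, so these 2 counts overlap. The CRE stood in 5 of the 32 windows outside the factors (15.6%), against 2.75% of 11257 windows of all genes tested and 1.55% of 32851 windows in the whole table. TGACG stood in 18 of the 32 (56.2%), against 27.4% and 17.8%. AP-1 was found in 0 of the 32 windows, against 3.81% of windows of all genes tested, and EGR in 1. A CArG box was found in 1, that of Dusp5. Windows of the genes lower at an unadjusted p under 0.05 held the CRE in 1 of 136 (0.735%) and TGACG in 24.3%. A match describes letters and is not a tested binding site. The 5 stretches with a CRE outside the factors are shown because the CRE had the largest ratio between its share here and its share in all genes tested. They read 5′ to 3′ on the gene's own strand, with the CRE in capitals, and come from the small GTPase Arl4d (chr11:101665495-101665540, plus strand), the antiproliferative gene Btg2 (chr1:134079294-134079341, minus strand), the phosphatase Dusp1 (chr17:26508588-26508635, minus strand), the receptor kinase inhibitor Errfi1 (chr4:150854999-150855046, plus strand) and the kinase Plk2 (chr13:110394962-110395009, plus strand).
Arl4d: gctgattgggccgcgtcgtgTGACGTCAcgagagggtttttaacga
Btg2: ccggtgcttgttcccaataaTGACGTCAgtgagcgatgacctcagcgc
Dusp1: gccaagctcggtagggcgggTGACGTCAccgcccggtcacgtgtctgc
Errfi1: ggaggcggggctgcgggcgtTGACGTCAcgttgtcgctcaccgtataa
Plk2: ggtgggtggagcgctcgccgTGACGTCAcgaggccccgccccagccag
The CRE ended 19 bases before the start in Arl4d, 44 in Errfi1, 55 in Plk2, 136 in Dusp1 and 159 in Btg2. The Dusp5 window (chr19:53529053-53529102, plus strand) is shown with its second CArG box in capitals, and the first lies directly before it.
Dusp5: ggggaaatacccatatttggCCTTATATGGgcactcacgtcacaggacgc

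Postsynaptic and ubiquitin-linked genes included the largest change outside the factors. Arc, which encodes a capsid-like protein that drives AMPA receptor endocytosis, had signals of 6.65, 5.78 and 6.57 in bicuculline and 1.74 and 2.63 in DMSO. All bicuculline libraries were far above both controls, and Arc rose by 4.15 (SE 0.38, limma adjusted p = 5.32e-05), or 17.7-fold. Fbxo33, a substrate adaptor of an SCF ubiquitin ligase, had 3.51, 3.23 and 4.12 against 1.75 and 1.97. The groups did not overlap, and it rose by 1.76 (SE 0.20, adjusted p = 0.000221). Otud1, a deubiquitinase, had 3.71, 3.09 and 4.23 against 2.36 and 2.35 and rose by 1.32 (SE 0.24, adjusted p = 0.0169). Of the 24 postsynaptic and adhesion genes tested, Arc and Fbxo33 were called, 0 were called lower, and the median log2 fold change was 0.01. Pcdh8, an activity-regulated protocadherin, was next in size at 0.63 (adjusted p = 0.262) and was not called, but passed without bicuculline replicate 2 (0.83, adjusted p = 0.00635). The call of Otud1 was lost without bicuculline replicate 1 (adjusted p = 0.068), DMSO replicate 2 (0.159) or DMSO replicate 3 (0.225).

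Growth arrest genes formed a second group, in which 5 of 16 tested were called higher and 0 lower, with a median log2 fold change of 0.37. Gadd45b, which takes part in stress signalling and DNA demethylation, had 5.03, 4.54 and 5.49 in bicuculline and 1.73 and 1.88 in DMSO. It rose by 3.22 (SE 0.30, adjusted p = 5.59e-05), and its lowest bicuculline library was still well above both controls. Gadd45g, its paralogue, had 6.92, 5.88 and 7.11 against 4.15 and 4.00 and rose by 2.56 (SE 0.37, adjusted p = 0.00231). Btg2, whose protein recruits the deadenylase complex to mRNAs and whose promoter holds a CRE, had 6.29, 5.68 and 6.22 against 3.00 and 2.76. It rose by 3.19 (SE 0.21, adjusted p = 5.66e-06), a narrow spread for a change of this size. Its relatives Tob1 (0.80, adjusted p = 0.0084) and Tob2 (0.78, adjusted p = 0.00763) also rose. Without DMSO replicate 3 the calls of Gadd45g (adjusted p = 0.0555), Tob1 (0.201) and Tob2 (0.205) were lost, and that of Tob1 also without DMSO replicate 2 (0.060).

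**Figure D2:**
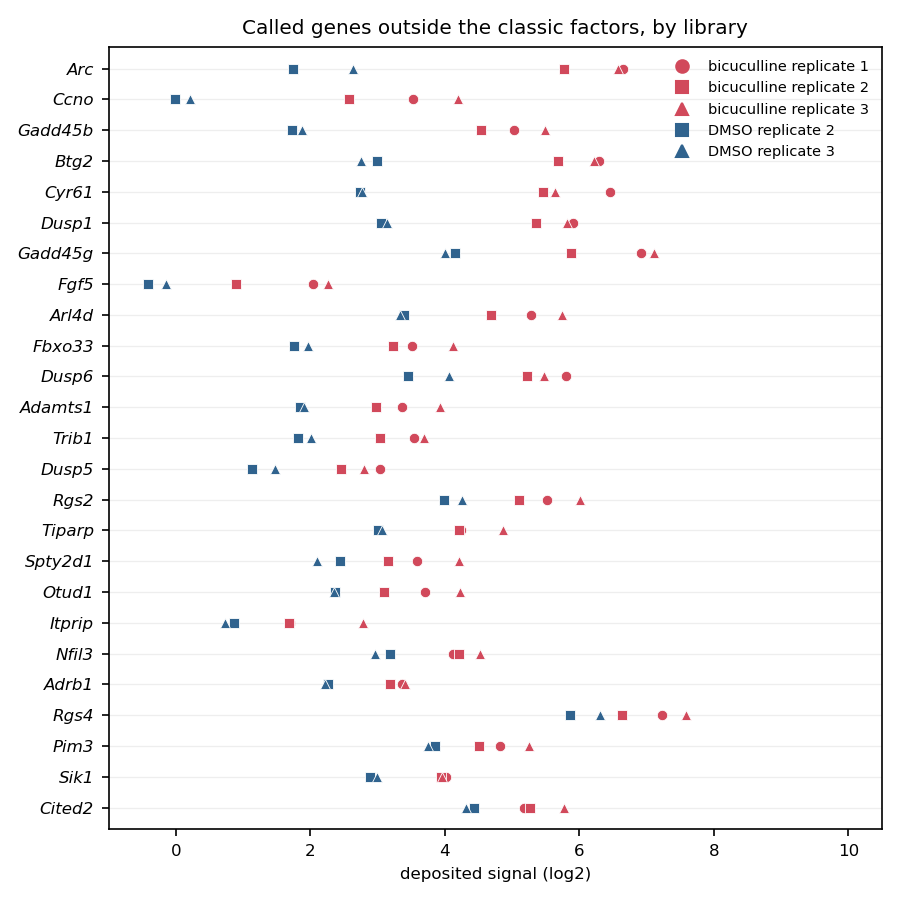
Deposited log2 signal (horizontal) of the 25 called genes outside the classic factors with the largest log2 fold change, in the 3 bicuculline (red) and 2 DMSO (blue) libraries, with 1 marker shape per replicate number. The groups do not overlap in any of these genes, and bicuculline replicate 2 (red squares) is often the lowest of the red points.

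Feedback inhibitors of MAP kinase signalling rose in part. Dusp1, a nuclear phosphatase of MAP kinases, had 5.90, 5.35 and 5.82 in bicuculline and 3.05 and 3.14 in DMSO, and rose by 2.59 (SE 0.19, adjusted p = 5.72e-06). Dusp6, which acts on ERK in the cytoplasm, had 5.80, 5.22 and 5.48 against 3.46 and 4.06 and rose by 1.74 (SE 0.25, adjusted p = 0.00231). Dusp5, a nuclear ERK phosphatase, had 3.04, 2.46 and 2.80 against 1.13 and 1.48 and rose by 1.46 (SE 0.25, adjusted p = 0.0123). None of these phosphatases had overlapping groups. Errfi1, an inhibitor of the EGF receptor, rose by 0.99 (SE 0.15, adjusted p = 0.00273). These 4 were the called members among 18 tested, whose median was 0.17, and 0 were called lower. The family did not move as a whole: Dusp4 was just outside the threshold at 0.79 (adjusted p = 0.0743), while Dusp7, a cytoplasmic ERK phosphatase, was below DMSO in all libraries, with 3.36, 3.41 and 3.16 against 3.65 and 3.60 (log2 fold change -0.32, adjusted p = 0.867, not called). Erf, an ETS repressor that ERK phosphorylates, rose by 0.73 (SE 0.14, adjusted p = 0.0284). Without DMSO replicate 2 the calls of Dusp6 (adjusted p = 0.071), Dusp5 (0.242) and Erf (0.409) were lost, and without DMSO replicate 3 those of Dusp5 (0.0647), Errfi1 (0.0712) and Erf (0.126). Dusp5 and Erf were also lost without bicuculline replicate 1 (0.0678 and 0.0877) or 3 (0.053 and 0.119), and Dusp4 passed without replicate 2 (0.95, adjusted p = 0.012).

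Among kinases and pseudokinases 4 of 23 tested were called higher, 0 lower, with a median of 0.04. Trib1, a pseudokinase that brings substrates to the COP1 ubiquitin ligase, had 3.54, 3.04 and 3.70 against 1.81 and 2.01 and rose by 1.51 (SE 0.17, adjusted p = 0.000211). Sik1, a salt-inducible kinase that restrains CREB coactivators, had 4.02, 3.95 and 3.96 against 2.89 and 2.99. Its bicuculline libraries lay close together, and it rose by 1.03 (SE 0.09, adjusted p = 3.64e-05). Pim3, a survival kinase, had 4.82, 4.51 and 5.25 against 3.86 and 3.75 and rose by 1.05 (SE 0.19, adjusted p = 0.0151). Plk2, a kinase of homeostatic synapse weakening with a CRE in its promoter, rose by 0.94 (SE 0.12, adjusted p = 0.000863). Pim3 lost its call without DMSO replicate 2 (adjusted p = 0.109) or 3 (0.257). CREB coactivator and cAMP signalling genes had 0 of 18 called in either direction with limma, and 0 of 18 had an unadjusted p under 0.05.

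Small GTPases and G-protein regulators had 3 of 20 called higher, 0 lower, and a median of 0.33. Arl4d, a plasma membrane GTPase whose CRE lies closest to the start of those shown, had 5.29, 4.69 and 5.74 in bicuculline and 3.40 and 3.33 in DMSO. It rose by 1.88 (SE 0.23, adjusted p = 0.000507). Rgs2, which speeds the shut-off of G-protein signalling, had 5.52, 5.11 and 6.01 against 3.99 and 4.26 and rose by 1.42 (SE 0.20, adjusted p = 0.00217). Rgs4, a relative that is abundant in cortical neurons, had the highest DMSO signals among the 25 genes plotted by library, at 5.86 and 6.31, against 7.23, 6.63 and 7.59. Its groups were close, and it rose by 1.07 (SE 0.21, adjusted p = 0.0406). Adrb1, the beta-1 adrenergic receptor, had 3.37, 3.19 and 3.40 against 2.27 and 2.21 and rose by 1.08 (SE 0.17, adjusted p = 0.00561). Without DMSO replicate 2 the calls of Rgs2 (adjusted p = 0.059), Rgs4 (0.574) and Adrb1 (0.0623) were lost, and without DMSO replicate 3 those of Rgs4 (0.0712) and Adrb1 (0.104). Rgs4 was also lost without bicuculline replicate 1 (0.147) or 3 (0.133), and without the variance trend (0.0719). Rasl11a, a nucleolar GTPase, had a log2 fold change of 1.17 (adjusted p = 0.273) and was not called.

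Among 24 secreted factors and neuropeptides tested, 1 was called higher (Cyr61) and 0 lower, with a median log2 fold change of 0.44. Cyr61, a matricellular integrin ligand, had 6.46, 5.47 and 5.64 in bicuculline against 2.73 and 2.77 in DMSO. It rose by 3.10 (SE 0.35, adjusted p = 0.000221). Adamts1 and Fgf5, also secreted, are not on that list. Adamts1, a protease that cuts proteoglycans, had 3.37, 2.98 and 3.92 against 1.85 and 1.90 and rose by 1.55 (SE 0.21, adjusted p = 0.00116). Fgf5, a fibroblast growth factor, had low signals in DMSO, at -0.41 and -0.14. Its bicuculline libraries had 2.04, 0.89 and 2.26, with replicate 2 more than 1 log2 unit under the others. It rose by 2.01 (SE 0.37, adjusted p = 0.0216). The filter used the mean over all libraries, and the lowest mean kept was 0.35. Fgf5 group means were -0.28 in DMSO, -0.04 in PK-cleaved peptides, 0.17 in peptides plus APV, 0.73 in NMP peptides and 1.73 in bicuculline. Its entry into the test thus rested in part on the bicuculline libraries, and it kept its call without the filter. The Fgf5 call was lost without bicuculline replicate 1 (adjusted p = 0.102) or 3 (0.118) and without DMSO replicate 2 (0.289) or 3 (0.166). Bdnf, a neurotrophin, had 2.41, 1.93 and 3.45 against 0.93 and 1.42. The groups did not overlap, but the bicuculline libraries differed from one another by more than the lowest of them differed from the highest DMSO library (log2 fold change 1.42, SE 0.38, adjusted p = 0.307). Vgf, a neuropeptide precursor, had 1.03 (SE 0.35, adjusted p = 0.902).

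Transcriptional regulators outside the classic factors had 4 of 42 tested called higher, 0 lower, and a median of 0.00. Tiparp, an ADP-ribosyltransferase that represses the aryl hydrocarbon receptor, had 4.24, 4.22 and 4.87 in bicuculline and 3.00 and 3.06 in DMSO, and rose by 1.41 (SE 0.16, adjusted p = 0.000211). Nfil3, a bZIP repressor, had 4.12, 4.21 and 4.53 against 3.18 and 2.97 and rose by 1.21 (SE 0.13, adjusted p = 0.000129). Cited2, a CBP and p300 ligand, had 5.17, 5.26 and 5.77 against 4.44 and 4.32 and rose by 1.02 (SE 0.15, adjusted p = 0.00252). In Nfil3 and Cited2 bicuculline replicate 1, not replicate 2, was the lowest. Klf5 rose by 0.97 (SE 0.19, adjusted p = 0.0335). Klf5 lost its call without any of bicuculline replicates 1 and 3 and DMSO replicates 2 and 3 (adjusted p from 0.147 to 0.409), and Cited2 without DMSO replicate 3 (0.071). Sertad1, a cofactor of E2F, had 1.75, 1.17 and 2.84 against 0.31 and 0.49, a log2 fold change of 1.52 with an SE of 0.44, and was not called (adjusted p = 0.407).

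Other called genes lay outside these groups. Ccno, an atypical cyclin best known for building multiciliated cells, had the second largest change outside the factors. Its signals were 3.53, 2.58 and 4.20 in bicuculline and -0.02 and 0.21 in DMSO. All bicuculline libraries were high, though they spanned more than 1 log2 unit, and it rose by 3.34 (SE 0.50, adjusted p = 0.00355), or 10.1-fold. Spty2d1, a histone chaperone, had 3.58, 3.16 and 4.21 against 2.45 and 2.09 and rose by 1.38 (SE 0.23, adjusted p = 0.0084). Itprip, a protein that binds the IP3 receptor, had 1.70, 1.68 and 2.79 against 0.87 and 0.73. Replicate 3 stood above the other bicuculline libraries, and the gene rose by 1.26 (SE 0.25, adjusted p = 0.0418). Dnajb1, a heat shock co-chaperone, rose by 0.97 (SE 0.14, adjusted p = 0.00273) as the only called member of 17 heat shock chaperones tested (0 lower, median -0.03). Slc2a1, the glucose transporter GLUT1, rose by 0.72 (SE 0.14, adjusted p = 0.0284), alone among 9 alpha-arrestin and glucose-responsive genes (0 lower, median 0.05). Pnrc1, a nuclear receptor coactivator linked to mRNA decapping, had the smallest change of the 35, at 0.45 (SE 0.09, adjusted p = 0.0432), and was the only called gene of 31 regulators of RNA synthesis, splicing and decay (0 lower, median -0.02). Without DMSO replicate 2 or 3 the calls of Ccno (adjusted p = 0.0649 and 0.051), Itprip (0.231 and 0.607) and Slc2a1 (0.449 and 0.0882) were lost, with log2 fold changes of 3.22 and 3.45 for Ccno. Spty2d1 was lost without DMSO replicate 3 (0.243) and Dnajb1 without DMSO replicate 2 (0.0639). Slc2a1 was also lost without bicuculline replicate 1 (0.0758) or 3 (0.125). Pnrc1 was lost without any 1 of the bicuculline libraries (0.121 to 0.159), and without DMSO replicate 3 its log2 fold change was 0.30. Without the filter the calls of Itprip (adjusted p = 0.0512) and Pnrc1 (0.0508) were lost. Pnrc1 was also lost without the variance trend (0.0642) and Itprip with array weights (0.0734).

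The lists of GABA-A, glutamate receptor and potassium channel subunits held no called gene. In limma, 0 of 12 GABA-A receptor subunits, 0 of 19 glutamate receptor subunits and 0 of 34 potassium channel subunits were called in either direction. At an unadjusted p under 0.05 these lists had 0, 2 and 1 genes, the 2 lower and the 1 higher. Their medians were -0.05, -0.09 and -0.05, against -0.03 for all genes tested. Below 0 were 9 of the GABA-A, 16 of the glutamate receptor and 24 of the potassium channel subunits, against 62.9% of all genes tested. The GABA-A subunit with the largest difference was Gabrb2, with 4.49, 4.25 and 3.98 against 4.36 and 4.58 (log2 fold change -0.23, adjusted p = 0.996), and its groups overlapped. Among potassium channel genes Kcnf1, a silent modulatory subunit, had 4.56, 4.37 and 4.94 against 4.01 and 4.20 (0.52, adjusted p = 0.596). Clock genes had 0 of 16 called and 2 higher and 1 lower at an unadjusted p under 0.05. Per1, a clock gene that CREB is known to induce, was just outside the threshold with 3.81, 3.90 and 4.46 against 3.17 and 3.32 (0.81, SE 0.18, adjusted p = 0.0829), and passed without bicuculline replicate 1 (0.94, adjusted p = 0.047). Notch and BMP target genes had 0 of 10 called and 0 with an unadjusted p under 0.05. The 3 other genes nearest the threshold without passing were Rasgef1b (0.54, adjusted p = 0.0536), Lrrtm1 (0.38, adjusted p = 0.0698) and Myc (0.38, adjusted p = 0.0855). Lrrtm1 passed without bicuculline replicate 1 (0.44, adjusted p = 0.029) and Rasgef1b without DMSO replicate 2 (0.69, adjusted p = 0.0373), with the 60% filter (adjusted p = 0.0497) and with median centring (0.0468).

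**Figure D3:**
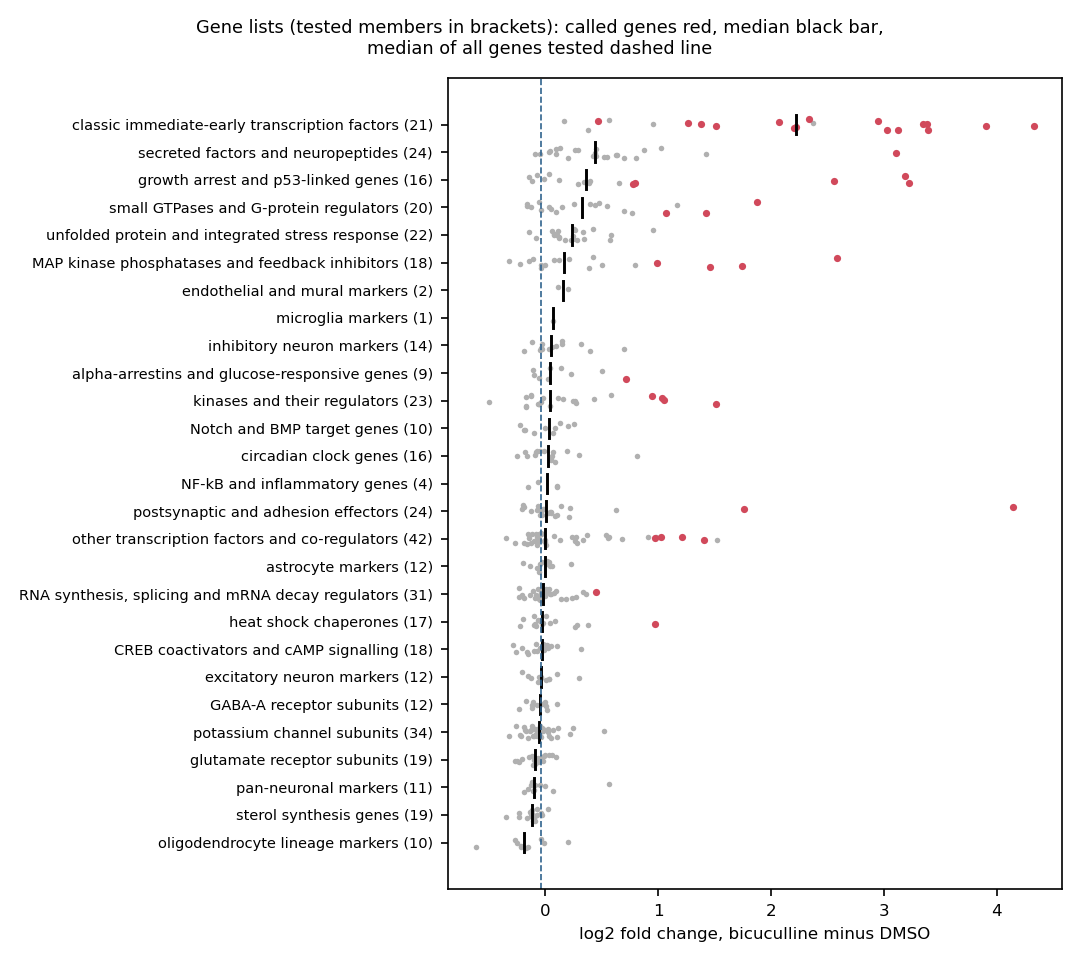
Log2 fold change in bicuculline against DMSO (horizontal) of each tested member of the 27 gene lists (rows, number tested in brackets). Red points were called, grey points were not, black bars are list medians, and the dashed line is the median of all genes tested at -0.03. The 16 called classic factors reach furthest to the right, and no list has a called member below 0.

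Stress and sterol lists stood slightly off the centre without any call. Among 22 genes tested for protein folding stress and the integrated stress response, 20 had a log2 fold change above 0, against 37.1% of all genes tested, and the median was 0.24. In limma 0 were called, and 3 were higher at an unadjusted p under 0.05. Ddit3, a stress-induced transcription factor, had 4.12 in DMSO replicate 2 and 2.52 in replicate 3, and its bicuculline values of 3.33, 4.04 and 4.30 overlapped that range (0.57, SE 0.47). Its log2 fold change was -0.23 without DMSO replicate 3 and 1.37 without DMSO replicate 2. Ppp1r15a, a phosphatase subunit that ends translational arrest, had 4.94, 4.92 and 5.30 against 4.50 and 3.69 (0.96, adjusted p = 0.319). Of 19 sterol synthesis genes 18 were below 0, against 62.9% of all genes tested, with a median of -0.12. In limma 0 of them were called and 1 was lower at an unadjusted p under 0.05. Sc5d, a sterol desaturase, had 4.44, 4.63 and 4.20 against 4.67 and 4.86 (-0.34, SE 0.13, adjusted p = 0.996). The oligodendrocyte lineage markers, whose sum was lower in bicuculline as given above, had a median of -0.19 over 10 tested genes with 0 called. Their part in the sterol values was not tested.

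The lower side of the comparison was made of small differences. In limma no gene was called lower, and 135 were lower at an unadjusted p under 0.05. The 15 genes with the smallest p whose libraries did not overlap had log2 fold changes of -0.53 to -0.22 and adjusted p-values from 0.104 to 0.916. Dph2, an enzyme of diphthamide synthesis on elongation factor 2, had 1.36, 1.71 and 1.41 in bicuculline and 2.03 and 2.01 in DMSO. Replicate 2 was nearest to the controls (log2 fold change -0.53, SE 0.12, adjusted p = 0.104). Without bicuculline replicate 2 it was called lower at -0.63 (adjusted p = 0.0194). Dyrk3, a kinase that dissolves stress granules, had 2.05, 2.07 and 1.72 against 2.58 and 2.31 (-0.50, SE 0.13, adjusted p = 0.232). Ccdc126 had 0.45, 0.70 and 0.56 against 1.20 and 1.00 (-0.53, SE 0.14, adjusted p = 0.273). Kbtbd7, a CUL3 ubiquitin ligase adaptor, had 3.08, 3.05 and 2.98 against 3.31 and 3.43 (-0.33, SE 0.09, adjusted p = 0.331). The bicuculline libraries of Kbtbd7 lay close together below both controls. Otud6b, a deubiquitinase, had 4.19, 4.14 and 4.10 against 4.33 and 4.39 (-0.22, SE 0.06, adjusted p = 0.443). The others were Zfp212, Dnajb3, Chst12, Rab9, Wdr44, Zfp87, Dusp7, Kctd21, Mis12 and Jrkl.

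Since the DMSO group had 2 libraries, the same genes were set beside the other groups, in comparisons that share the bicuculline libraries. Against PK-cleaved peptides 58 genes were called higher (0.533%) and 0 lower, against NMP peptides 19 (0.175%) and 0, and against NMP peptides plus APV 259 (2.38%) higher and 103 (0.947%) lower. At least 1 treatment differs in each of these comparisons, so they do not replace DMSO. Dph2 had -0.34 against PK-cleaved peptides (adjusted p = 0.522) and -0.44 against peptides plus APV (adjusted p = 0.0351). Dyrk3 had -0.52 against PK-cleaved peptides (adjusted p = 0.0729), close to its value against DMSO. Jrkl had -0.46 against DMSO and -0.09 against PK-cleaved peptides. Among the called genes, Ccno had 3.12 (adjusted p = 0.00208) and Fgf5 1.77 (adjusted p = 0.0209) against PK-cleaved peptides, beside 3.34 and 2.01 against DMSO. Against NMP peptides the differences were smaller: Ccno had 1.75 (adjusted p = 0.357), Cyr61 1.55 (adjusted p = 0.079), and Btg2 1.89 (adjusted p = 0.00111).

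**Figure D4:**
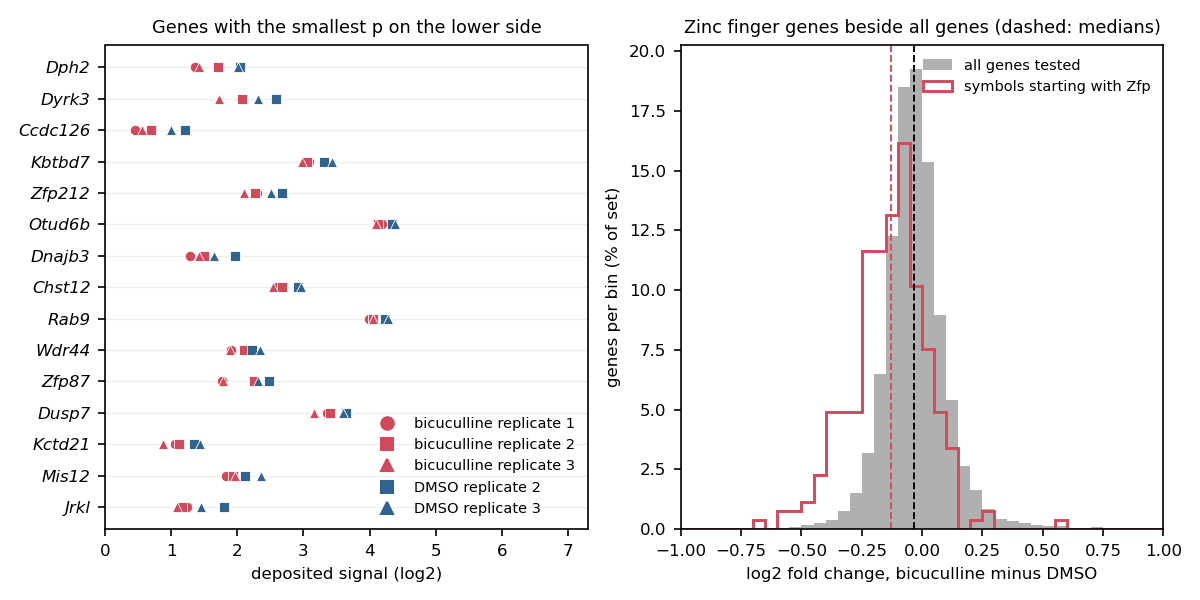
Left, deposited log2 signal of the 15 genes with the smallest p on the lower side whose groups do not overlap, in bicuculline (red) and DMSO (blue) libraries. Right, log2 fold change of all 10877 genes tested (grey) and of 266 genes whose symbol starts with Zfp and a digit (red line), as percent of each set per bin and shown from -1 to 1, with dashed lines at the medians of -0.03 and -0.13.

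Zfp212 and Zfp87, 2 of those 15 genes, encode zinc finger proteins, and the wider group with Zfp symbols was then described, a choice made after the values were seen. Of 266 such genes tested, 220 (82.7%) were below 0, against 62.9% of all genes, and their median was -0.13. In limma 0 were called. At an unadjusted p under 0.05, 23 were lower and 2 higher, against 1.24% lower and 1.90% higher of all genes tested. The median signal of the Zfp genes was 1.89, 1.98 and 1.82 in bicuculline and 2.06 and 1.95 in DMSO. Bicuculline replicate 2 was thus above DMSO replicate 3, and the groups overlapped. All genes tested had higher median signals, from 3.30 to 3.33 in these libraries. The low-signal genes described below had a median log2 fold change of -0.09. The part of signal level in the Zfp share was not tested. Against PK-cleaved peptides 173 (65.0%) were below 0, against 47.3% of all genes, with 15 lower and 2 higher at an unadjusted p under 0.05. Against NMP peptides 144 (54.1%) were below 0, against 47.5% of all genes, with 3 lower and 4 higher. Against peptides plus APV 142 (53.4%) were below 0, against 44.7%, with 25 lower and 21 higher, and 8 were called in either direction. In that comparison 2.38% of all genes tested were called higher and 0.947% lower. For the comparisons with the peptide groups, the shares of all genes at an unadjusted p under 0.05 were not counted. The other treatments set against DMSO had shares of 84.6% for NMP peptides, 78.2% for PK-cleaved peptides and 78.9% for peptides plus APV, where all genes had 64.7%, 66.0% and 63.7%. These comparisons share the DMSO libraries.

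Low-signal genes, dropped by the filter on mean signal, were tested in a fit of 14950 features with a value in all 5 libraries. Of 4073 low-signal genes, 3 were called higher (0.0737%) and 0 lower. At an unadjusted p under 0.05 there were 80 higher (1.96%) and 118 lower (2.90%). Their median SE was 0.40, against 0.11 for the genes tested above. Ptgs2, the inducible cyclooxygenase of prostaglandin synthesis, had 1.01, -0.07 and 2.05 in bicuculline and -2.66 and -2.75 in DMSO. Its lowest bicuculline library was more than 2 log2 units above both controls, and it rose by 3.70 (SE 0.48, adjusted p = 0.00101), or 13.0-fold. C2cd4b, a nuclear C2-domain protein, had 0.78, 0.06 and 1.13 against -1.44 and -1.21 and rose by 1.98 (SE 0.37, adjusted p = 0.033). Hic1, a zinc finger repressor, had -0.49, -1.24 and -0.73 against -2.28 and -2.53 and rose by 1.59 (SE 0.32, adjusted p = 0.0493), just inside the threshold. C2cd4b and Hic1 lost their calls without bicuculline replicate 1 (adjusted p = 0.133 and 0.240), bicuculline replicate 3 (0.185 and 0.226), DMSO replicate 2 (0.372 and 0.211) or DMSO replicate 3 (0.267 and 0.733), while Ptgs2 was called each time. In a fit of the compared groups alone 0 low-signal genes were called.

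Other low-signal genes had large differences that did not pass. Rasd1, a dexamethasone-induced Ras protein, had -1.73, -0.35 and 0.51 in bicuculline and -3.15 and -4.11 in DMSO (log2 fold change 3.11, SE 0.63, adjusted p = 0.0543). Fosl1, an AP-1 factor, had -0.09, -0.70 and 0.90 against -2.62 and -2.53 (2.61, SE 0.53, adjusted p = 0.0543). Csrnp1 had 0.61, -0.04 and 0.89 against -1.23 and -0.89 (1.55, adjusted p = 0.0775). None of these had overlapping groups. They were named for small p-values, and the share of all low-signal genes without overlap was not counted, so this is only a description. Without bicuculline replicate 2 Fosl1 (2.98, adjusted p = 0.0258) and Csrnp1 (1.81, adjusted p = 0.0238) passed, and without replicate 1 Rasd1 did (3.71, adjusted p = 0.0114). On the lower side, Spink2, a protease inhibitor, had -3.39, -2.62 and -2.85 against -1.25 and -1.37 (-1.65, SE 0.38, adjusted p = 0.144). Htr1d, a serotonin receptor, had -2.04, -1.68 and -2.41 against -0.75 and -1.12 (-1.11, SE 0.29, adjusted p = 0.311). Dcaf12l2 had -0.84, -1.20 and -1.07 against -0.05 and -0.42 (-0.80, adjusted p = 0.266). Against PK-cleaved peptides Spink2 had -0.49 and Htr1d -0.67, each with an adjusted p of 1. Among NF-kB and inflammatory genes, 4 were in the main test with 0 called and 0 at an unadjusted p under 0.05, and 12 were low-signal genes, of which Ptgs2 was called.

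At the very bottom of the scale, 43 features had a value in all bicuculline libraries and in no DMSO library, and 55 the reverse. These are counts out of 18128 features with any value. With 3 bicuculline and 2 DMSO libraries, the 2 counts rest on unlike conditions and cannot be compared. A missing value has no size, so no fold was computed. The highest mean among the first was -2.30 and among the second -1.29. Grap, a signalling adaptor, was listed at -3.18, -4.17 and -4.11 in bicuculline and at -4.06, -3.03 and -4.12 in peptides plus APV, so its listing was not confined to bicuculline. Hist1h4k, a replication-dependent histone gene, was listed at -1.39 and -1.19 in DMSO and in no bicuculline library, but also in all libraries of peptides plus APV, from -2.20 to 0.24. Madcam1, an adhesion molecule, was listed at -3.28 and -3.11 in DMSO, and also in PK-cleaved peptides replicate 2 at -4.08 and in NMP peptides replicates 2 and 3 at -4.03 and -4.20.

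The size of the response differed between bicuculline libraries. The median of the 35 genes outside the factors, minus their DMSO mean, was 1.31, 0.98 and 1.79 in bicuculline replicates 1 to 3. Replicate 2 was the lowest of the 3 in 46 of the 51 called genes and the highest in 0, and replicate 3 was the highest in 37. Replicate 2 also had the highest Gfap of all 14 libraries. Without the 4 libraries of highest Gfap, a choice made after seeing the data that leaves 1 DMSO library, 45 genes were called higher, 41 of them among the 51. Outside the factors Cited2, Erf, Itprip, Klf5, Pim3, Pnrc1, Slc2a1 and Tob1 lost their calls. In the other groups the same median was 0.67, 0.65 and 0.33 for NMP peptides, 0.22, 0.10 and -0.06 for PK-cleaved peptides, and 0.01, 0.04 and -0.22 for peptides plus APV. Since these genes were called for being higher in bicuculline, the order of the bicuculline medians above the others follows in part from that choice and is only a description.

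**Figure D5:**
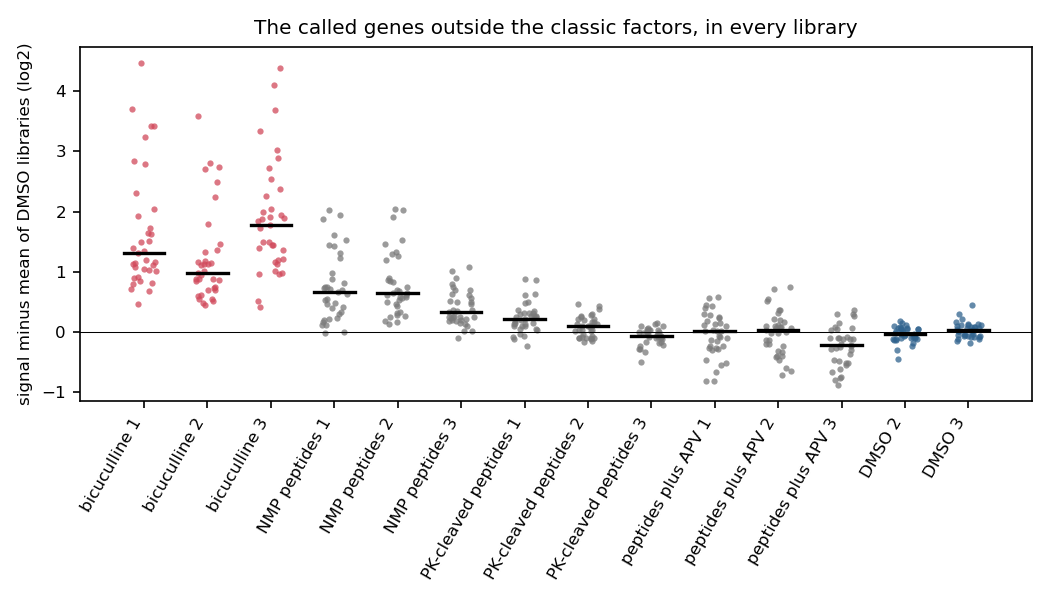
Log2 signal minus the mean of the DMSO libraries (vertical) for the 35 called genes outside the classic factors, in each of the 14 libraries (horizontal), with black bars at the medians. Bicuculline libraries are red, DMSO blue and peptide libraries grey, and the genes were chosen as higher in bicuculline, whose medians are 1.31, 0.98 and 1.79.

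Without DMSO replicate 3, 30 genes were called higher, 16 of them outside the factors, and without DMSO replicate 2 the counts were 40 and 26. The counts without DMSO replicate 2 include genes that were not among the 51, so they are not counts of calls kept. A fit of the bicuculline and DMSO libraries alone drops the peptide libraries from the estimate of spread. It gave 27 genes higher, all among the 51, and 16 of them were outside the factors. The 19 genes outside the factors that lost their calls in that fit were Gm13889, Adamts1 (adjusted p = 0.0677), Plk2 (0.0596), Cited2, Dnajb1, Erf, Errfi1, Fgf5, Itprip, Klf5, Otud1, Pim3, Pnrc1, Rgs2, Rgs4, Slc2a1, Spty2d1, Tob1 and Tob2. Outside the factors, 11 genes were called in the fit described here and in every alternative but the stricter filter: Arc, Arl4d, Btg2, Cyr61, Dusp1, Fbxo33, Gadd45b, Nfil3, Sik1, Tiparp and Trib1.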

How the data were processed

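RNA was measured in 14 libraries of mouse cortical cultures. The authors deposited log2 signals, with a mark for missing values. Every library has the median 2.19 and the maximum 12.0, a mark of quantile normalisation. Base 2 was checked on sums of antilogged values times exon length (792000 to 857000 in base 2 and 5610000 to 6170000 in base e). Per the submitters' processing notes the genome build is GRCm38.p6. No aligner, counter or annotation is named in the sources used here. The depth of reads is unknown, and quantile normalisation hides any change in total RNA.

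Each label names its column in the table. Features were ordered by mean signal, with missing values at the table minimum for ranking only, and the lowest 40% of the 18128 with any value were dropped. limma 3.58.1 in R 4.3.3 fitted 1 mean for each group over all 14 libraries, with trended empirical Bayes moderation. Tests were two-sided, adjustment was by Benjamini-Hochberg over all 10877 genes, and genes with an adjusted p under 0.05 are called. The labels do not say which cultures were separate, so the p-values cover only the variation among these libraries, which may be technical. Low-signal genes came from a second fit without the filter, adjusted over its 14950 features. The procedure was tested on simulated data.

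The members and gene lists were chosen with earlier results of these data known. Named genes came from sets chosen by rule, without predicted models. These were the 25 largest called changes outside the classic factors and the 15 smallest p on the lower side without overlap. The 8 smallest p per direction among low-signal genes and the 3 largest changes per list (1 for marker lists) were added. So were the 5 highest features listed in 1 group only and the 5 nearest the threshold. From the sets of low-signal genes, lists and features listed in 1 group, only a part is named above. Genes named after their values were seen are Errfi1, Klf5, Plk2, Tob1, Tob2, Erf, Slc17a7, Gad1, Gfap, Cldn5, Ier2 and Junb. Promoters and gene spans were taken from RefSeq tables of the same build, and exon counts from the GENCODE basic annotation. Alternatives were no filter, a 60% filter, median centring, a replicate block, the compared groups alone, no variance trend, robust moderation, array weights and leaving out each library.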

Additional observations from a re-analysis of the deposited data

How the results depend on the processing

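Counts of genes called higher moved by more than 1.5 times from 51 in a fit of the compared groups alone (27) and without DMSO replicate 3 (30); leaving out 1 library at a time gave 30 to 54, and the other alternatives 40 to 52. Outside the classic factors the count of 35 moved to 16 in the compared groups alone, and leaving out 1 library gave 16 to 38. The count lower moved from 0 to 1 (Dph2) with array weights, and was 0 to 1 when 1 library was left out. Low-signal genes higher moved from 3 to 1 with missing values at the table minimum and to 0 in the compared groups alone, and leaving out 1 library gave 1 to 6; the count lower was 0 to 1 (Zfp967 without bicuculline replicate 1). With a replicate block 45 genes were called higher, 43 of them among the 51, with 28 outside the factors, 0 lower and 2 low-signal genes higher; 2 shared numbers, whose deviations correlated at 0.542 and 0.169, cannot show whether the numbers pair cultures. Ddit3 reversed when 1 library was left out, with log2 fold changes from -0.23 to 1.37. Over 74 named genes and the alternatives listed under the processing, direction and side of the threshold were kept in 821 cases, the call was lost in 96 and gained in 14, and the sign changed in 1. With the block, 8 genes outside the factors lost their call (Fgf5, Itprip, Klf5, Otud1, Pim3, Pnrc1, Rgs4 and Slc2a1) and Hic1 did among low-signal genes, while Per1 was called (0.89, adjusted p = 0.0194). The cause of these changes was not tested. The reduced fits also had fewer samples, and the part of sample number was not tested. Read depth is unknown, so what it limits cannot be given.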
